A study of Homo sapiens with 21 samples.

Results

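The genes described here are the 9 that encode enzymes of the route from squalene to cholesterol: SQLE, LSS, CYP51A1, MSMO1, NSDHL, HSD17B7, EBP, SC5D and DHCR7. They were picked by symbol as a list of pathway enzymes, with no measured value in the rule, and were matched by Ensembl gene identifier. Earlier results of these data were known when the list was chosen. All 9 were among the 37637 features counted, and all 9 passed the filter on low counts that left 17468 features for testing. They were followed in HepG2, an established human liver cancer line that keeps many liver functions, by RNA sequencing of poly(A)-selected RNA. Cells were washed free of serum and kept for 6 h in fresh serum-free DMEM holding caffeine, a methylxanthine that blocks adenosine receptors, at 0, 0.01, 0.1, 1, 10, 100 or 1000 µM. Each of the 7 doses has 3 libraries, 21 in all, which the series' design text calls biological replicates. The untreated cells were also without serum, so every group shares its removal, and all results come from a single cell line. The design text names coumarin for the control while the sample titles call it caffeine at 0 µM, and the titles were followed.

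Cholesterol is made from acetyl-CoA by way of mevalonate and squalene, and the liver is a main site of its synthesis. SQLE oxidises squalene, LSS closes the product into the ring system of lanosterol, and CYP51A1 begins to strip methyl groups from it. MSMO1, NSDHL and HSD17B7 work in turn on the remaining methyl groups next to the sterol hydroxyl, EBP moves a double bond in the ring, SC5D adds another and DHCR7 removes the last surplus one. Most genes of the pathway are known targets of SREBP2, a transcription factor that is released from the endoplasmic reticulum when its membranes run low on cholesterol.

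Total counts per library ran from 28043623 to 40827833. The control libraries had 30849119 to 31740966 counts and those of the highest dose 32497612 to 40827833. Each of the 9 genes had at least 353 counts in every library. Mitochondrial genes took 6.94 to 7.86% of counts at 0 µM and 6.94 to 10.3% at 1000 µM, while 1 library at 1 µM reached 14.2%. The liver markers were present throughout, with ALB at 4740 to 7150 CPM (the count relative to the library total after scaling between libraries) and AFP at 1960 to 3780 CPM. Of markers of other cell types, COL1A2 had no count in any library, which allows up to 3 counts, and PTPRC had 0 or 1. CD14, a leukocyte marker, was present in every library with 14 to 47 counts, or 0.444 to 1.54 CPM, the most of these markers. The 7 such markers in the table summed to 1.42 to 1.61 CPM at 0 µM and 0.793 to 1.14 CPM at 1000 µM, and the part of this in the results below was not tested.

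In untreated cells the enzymes differed in level when counts were put per kilobase of merged exon, the union of a gene's annotated exons. The order depends on these lengths. LSS and SQLE had 131 and 132 CPM at 0 µM before this step, with 7238 and 4305 merged bases. EBP stood highest at 41.1 ± 4.69 CPM per kb (SD, n = 3), with its lowest library at 36.0. SQLE followed at 30.7 ± 2.93 and DHCR7 at 28.1 ± 2.13 CPM per kb, and the libraries of these neighbours overlapped. MSMO1 had 23.6 ± 2.70, NSDHL 22.8 ± 0.862, CYP51A1 20.1 ± 1.36 and LSS 18.1 ± 1.40 CPM per kb. Of these, MSMO1 overlapped with DHCR7 and with NSDHL, and CYP51A1 with LSS, while NSDHL lay above CYP51A1 in all libraries. SC5D at 11.9 ± 0.751 and HSD17B7 at 5.27 ± 0.515 CPM per kb stood apart at the low end. At 1000 µM the order had changed in part, with SQLE at 22.2 ± 1.87, EBP at 22.1 ± 2.46 and DHCR7 at 21.4 ± 1.31 CPM per kb overlapping at the top. SC5D came next in the means at 16.3 ± 3.29 CPM per kb, and HSD17B7 remained lowest at 2.47 ± 0.306.

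The comparison of 1000 µM with 0 µM asked how the pathway genes stood after the highest dose. Transcripts of 7 of the 9 enzymes fell and those of SC5D, the desaturase, rose. CYP51A1 was lower in all 3 libraries than in any control but did not pass the test. The largest estimated losses were those of HSD17B7, which fell by 53.2%, MSMO1, which fell by 46.4%, and EBP, which fell by 46.2%. Of the 7, DHCR7 had the smallest estimate and fell by 24.1%. By the quasi-likelihood test of edgeR, with Benjamini-Hochberg adjustment over all features, 8 of 9 passed an adjusted p of 0.05, against 41.2% of all features tested, of which 20.6% were lower and 20.6% higher. The median log2 fold change was -0.60 over the 9 genes and -0.030 over all features tested. In 8 of the 9 genes all 3 libraries lay below all controls and in 1 above, while 27.3% of all features were lower and 25.9% higher without overlap. In bulk RNA a lower level can reflect fewer cells that express a gene or less RNA in each cell, and these cannot be told apart.

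**Figure D1:**
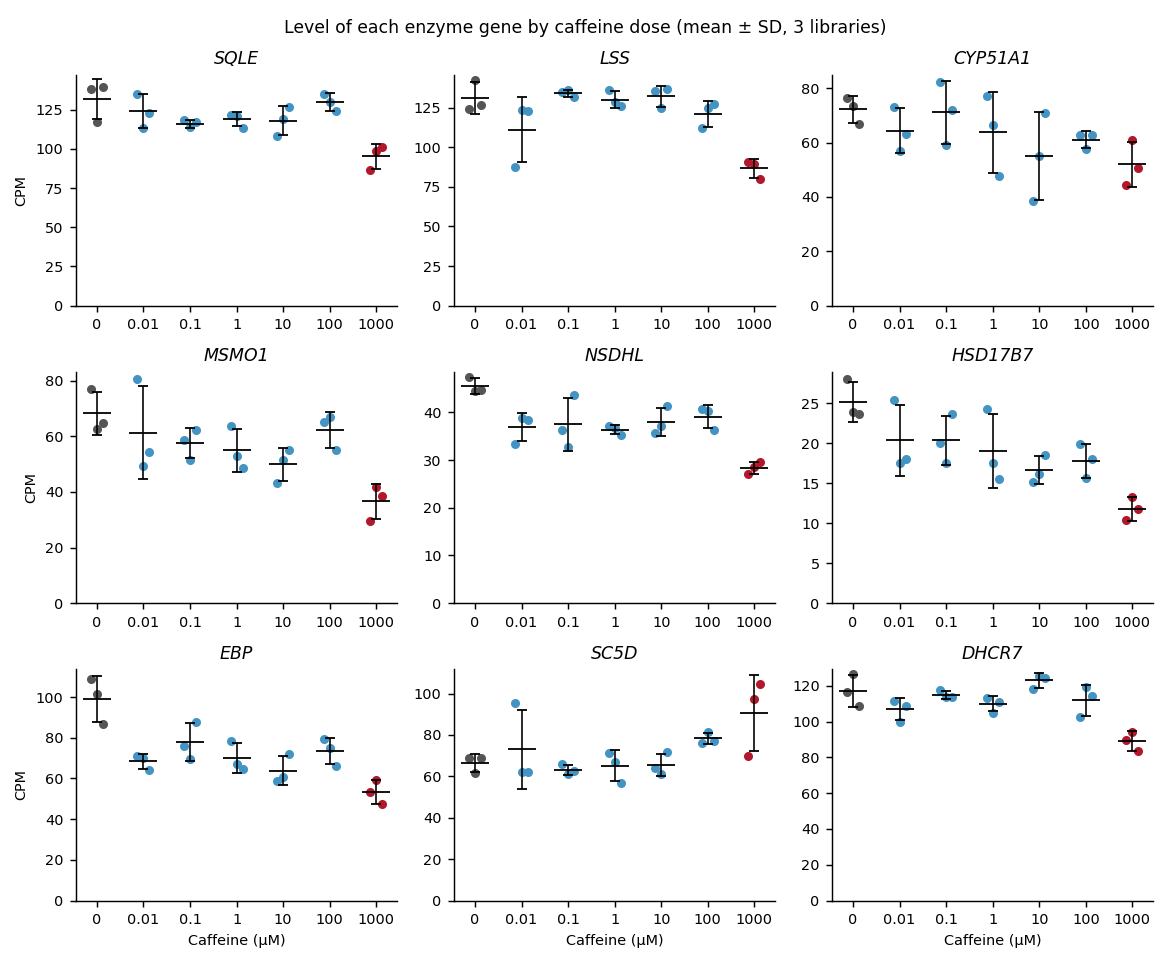
Level of each enzyme gene (CPM, linear axis from 0) against caffeine dose (µM). Points are single libraries, 3 per dose, and bars give the mean ± SD. In 8 panels the 3 libraries at 1000 µM lie below the 3 at 0 µM, and in the SC5D panel they lie above.

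SQLE, squalene epoxidase and a control point of the pathway, had 138, 117 and 139 CPM in the 3 untreated libraries and 86.3, 98.4 and 102 CPM at 1000 µM. Its libraries from 0.01 to 100 µM, at 108 to 135 CPM, all lay above those at 1000 µM. The log2 fold change at 1000 µM against 0 µM was -0.46 ± 0.091 (SE; 95% interval -0.65 to -0.27; edgeR adjusted p 6.2e-04). LSS, lanosterol synthase, had 124, 143 and 127 CPM in untreated cells and 90.5, 89.4 and 80.0 CPM at 1000 µM. The libraries of the lower doses ran from 112 to 137 CPM apart from replicate 1 at 0.01 µM, which at 87.6 CPM lay among those at 1000 µM. LSS fell by 33.9% at 1000 µM, a log2 fold change of -0.60 ± 0.11 (edgeR adjusted p 3.3e-04).

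Of the 3 enzymes that act on the methyl groups beside the hydroxyl, all fell. MSMO1, the sterol oxidase that begins this work, had 77.2, 62.7 and 64.9 CPM at 0 µM and 29.4, 41.7 and 38.5 CPM at 1000 µM. The groups were far apart, although MSMO1 also ranged from 43.2 to 80.6 CPM over the doses between. Its log2 fold change was -0.90 ± 0.17 (95% interval -1.26 to -0.54; edgeR adjusted p 4.9e-04). NSDHL, the decarboxylating dehydrogenase that follows, had 47.5, 44.4 and 44.6 CPM at 0 µM and 27.1, 28.5 and 29.5 CPM at 1000 µM. Its SD in CPM was the smallest of the 9 in these groups, 1.72 in controls and 1.23 at 1000 µM, but was 5.55 at 0.1 µM. The log2 fold change of NSDHL was -0.68 ± 0.098 (edgeR adjusted p 4.2e-05). HSD17B7, the ketosteroid reductase that completes the cycle, had 28.1, 23.9 and 23.7 CPM at 0 µM and 10.4, 13.3 and 11.7 CPM at 1000 µM. Its log2 fold change of -1.10 ± 0.18 (95% interval -1.47 to -0.73; edgeR adjusted p 1.2e-04) was the largest of the 9 as an estimate, and its interval overlapped those of MSMO1, EBP, NSDHL, CYP51A1 and LSS.

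EBP, the sterol isomerase, had 109, 102 and 86.8 CPM at 0 µM and 53.2, 59.2 and 47.4 CPM at 1000 µM. Every caffeine library except replicate 3 at 0.1 µM, at 87.8 CPM, lay below all 3 controls. The log2 fold change at 1000 µM was -0.90 ± 0.12 (95% interval -1.15 to -0.64; edgeR adjusted p 2.2e-05). DHCR7, which reduces 7-dehydrocholesterol in the last step of its branch, had 117, 127 and 109 CPM at 0 µM and 89.7, 94.3 and 83.4 CPM at 1000 µM. All libraries from 0.01 to 100 µM, at 99.6 to 125 CPM, lay above those at 1000 µM. Its log2 fold change was -0.40 ± 0.080 (95% interval -0.57 to -0.23; edgeR adjusted p 7.5e-04). The 7 calls of a lower level each held in 6 of 6 fits that left out 1 library of either group.

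SC5D, the desaturase that acts between EBP and DHCR7, was the 1 member of the 9 that rose at this dose. It had 68.9, 61.5 and 68.7 CPM at 0 µM and 69.8, 97.6 and 104 CPM at 1000 µM, so the groups did not overlap but the lowest treated library lay within 1 CPM of the highest control. At 100 µM the libraries had 76.0, 81.5 and 77.3 CPM, all above the controls. At 0.01 µM replicate 1 stood at 95.2 CPM beside 62.2 and 61.9 CPM in the others. The log2 fold change at 1000 µM was 0.45 ± 0.15 (95% interval 0.13 to 0.77; edgeR adjusted p 0.0263), and at 100 µM it was 0.24 ± 0.15 (edgeR adjusted p 0.346). The call at 1000 µM was lost without 0 µM replicate 1 (0.48; edgeR adjusted p 0.0509) or replicate 2 (0.40; 0.0944). It was also lost without 1000 µM replicate 2 (0.42; edgeR adjusted p 0.0731) or replicate 3 (0.34; 0.138).

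The distance of SC5D from the other 8 enzymes was also described library by library, as its log2 CPM minus the mean log2 CPM of the 8. It was -0.22, -0.29 and -0.079 at 0 µM, 0.18, 0.31 and 0.28 at 100 µM, and 0.67, 0.93 and 1.17 at 1000 µM. On this scale SC5D was below the mean of the others in all untreated libraries and above it in all libraries of the 2 highest doses. The values are not per kilobase of exon, so their sign depends on gene length. Only their change with dose can be read, and it was upward at the 2 highest doses. At the doses between, replicate 1 at 0.01 µM was the highest at 0.48, and the remaining 11 libraries ran from -0.20 to 0.21. For correlations, the log2 CPM of each of the other 8 was centred and divided by its SD before the mean was taken. Across the 21 libraries SC5D had a Pearson correlation of -0.35 with this standardised mean of the other 8, and 0.25 without the 1000 µM libraries. For MSMO1, HSD17B7 and EBP the same correlations were 0.93, 0.91 and 0.85 over 21 libraries and 0.82, 0.79 and 0.82 without 1000 µM. LSS (0.48 and -0.22) and DHCR7 (0.64 and 0.12) followed the others mainly through the 1000 µM libraries. These values are descriptions, since the points share libraries, dose groups and scaling.

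CYP51A1, lanosterol demethylase, had 76.2, 73.6 and 66.7 CPM at 0 µM and 44.5, 60.9 and 50.8 CPM at 1000 µM. The groups did not overlap, and the log2 fold change was -0.47 ± 0.19 (95% interval -0.88 to -0.065; edgeR adjusted p 0.0591). Its libraries were spread widely at some lower doses, with 38.6, 55.0 and 71.0 CPM at 10 µM and 77.2, 66.4 and 47.7 CPM at 1 µM, and lay close at 100 µM, with 62.7, 57.5 and 62.9 CPM. The gene lies at chr7:92112151-92134803 on the minus strand of GRCh38, where GENCODE release 29 lists 2 further protein-coding genes on the same strand that overlap it, ENSG00000285953.1 and ENSG00000285772.1. The first of these took 60 to 1494 counts per library and the other 56 to 169. At 10 µM replicate 1, where CYP51A1 was lowest, ENSG00000285953.1 had its highest level of that dose, 34.7 CPM, against 18.4 and 16.5 CPM in the other libraries. At 0.1 µM replicate 1, where CYP51A1 was highest at 82.4 CPM, ENSG00000285953.1 was lowest of all libraries at 1.78 CPM. Opposite levels were not seen at every dose: at 0.01 µM replicate 1 was the highest of its dose for both genes, with 73.2 CPM for CYP51A1 and 24.1 CPM for ENSG00000285953.1. In 100 µM replicate 1 ENSG00000285953.1 had its highest level of all libraries, 43.5 CPM, beside 62.7 CPM of CYP51A1. How the counting program divides reads between overlapping genes is not given in the sources used here.

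A sum of CYP51A1 with these 2 genes, its antisense gene and 2 pseudogenes was tested as well, an alternative chosen after the values were seen. The sum had 97.0 ± 5.44 CPM at 0 µM, 99.7 ± 8.18 at 100 µM and 69.7 ± 5.82 at 1000 µM (SD, n = 3). It was lower at 1000 µM than at 0 µM by a log2 fold change of -0.48 ± 0.11 (edgeR adjusted p 0.00183) and lower than at 100 µM by -0.52 ± 0.11 (edgeR adjusted p 0.00335). With such sums in place 9 of 9 enzymes passed at 1000 µM, and the share of all features called in that fit was not recorded. CYP51A1 alone also passed at 1000 µM without replicate 2 of that dose, at -0.58 (edgeR adjusted p 0.0458). Reads of HSD17B7 could likewise be shared with its pseudogene HSD17B7P2, which had 60 to 151 counts per library, and the sum of the pair gave -1.04 ± 0.15 (edgeR adjusted p 5.0e-05). DHCR7 overlaps an antisense gene with 59 to 179 counts, and the sum gave -0.40 ± 0.080 (edgeR adjusted p 7.5e-04).

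**Figure D2:**
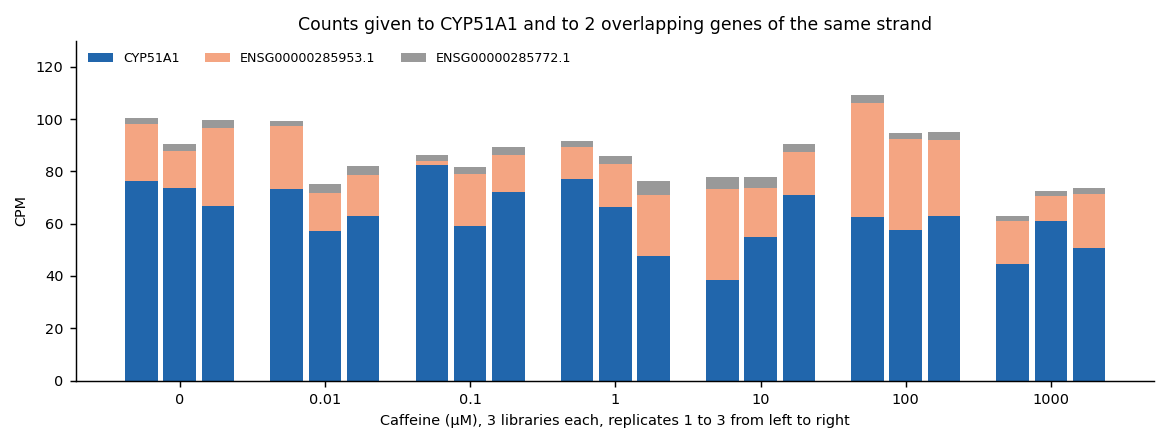
CPM of CYP51A1 and of 2 same-strand genes that overlap it, stacked for each of the 21 libraries by caffeine dose (µM), replicates 1 to 3 from left to right within a dose. CYP51A1 alone runs from 38.6 to 82.4 CPM, and at 1000 µM all 3 stacks are lower than any stack at 0 or 100 µM.

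To place the fall on the dose scale, 1000 µM was compared with doses other than the control. Against 100 µM, 7 of 9 enzymes fell and none rose by edgeR's test, beside 14.7% of all features called and 6.55% lower. The median log2 fold change was -0.46 over the 9 genes and -0.006 over all features. In 7 genes all libraries at 1000 µM lay below all those at 100 µM, as in 18.3% of all features. MSMO1 had the largest estimate, -0.77 ± 0.17 (edgeR adjusted p 0.00540), with 65.4, 66.8 and 55.0 CPM at 100 µM. SQLE (-0.44), LSS (-0.49), NSDHL (-0.46), HSD17B7 (-0.60), EBP (-0.46) and DHCR7 (-0.33) also fell, with edgeR adjusted p from 0.00312 to 0.0294. CYP51A1 at -0.23 ± 0.19 (95% interval -0.64 to 0.18) and SC5D at 0.21 ± 0.15 (95% interval -0.11 to 0.53) did not pass. SQLE, LSS, MSMO1 and NSDHL kept this call in 6 of 6 fits without 1 library. HSD17B7 lost it without 100 µM replicate 1 (-0.50) or 3 (-0.59) or 1000 µM replicate 1 (-0.49) or 3 (-0.59), with edgeR adjusted p of 0.0663 to 0.140. EBP lost it without 100 µM replicate 1 (-0.39) or 2 (-0.43) or 1000 µM replicate 3 (-0.39), and DHCR7 without 100 µM replicate 2 (-0.27) or 1000 µM replicate 3 (-0.28), with edgeR adjusted p of 0.0626 to 0.0910.

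Against the 9 libraries at 0.01, 0.1 and 1 µM pooled, 7 of 9 enzymes fell and SC5D rose, beside 30.1% of all features called, 14.0% lower and 16.2% higher. HSD17B7 (-0.76 ± 0.15; edgeR adjusted p 8.4e-04) and MSMO1 (-0.66 ± 0.14; 0.00197) again had the largest estimates. In 6 genes the libraries at 1000 µM lay below all 9, as in 7.53% of all features. SC5D stood at 0.44 ± 0.12 (edgeR adjusted p 0.0116) and lost the call without 1000 µM replicate 2 (0.39; 0.0660) or 3 (0.32; 0.128). CYP51A1 was at -0.35 ± 0.16 (edgeR adjusted p 0.109), and passed without 1 µM replicate 3 (-0.41; 0.0486). At 100 µM against the same 9 libraries, 0 of 9 passed edgeR's test, beside 0.469% of all features. Of the 9 enzymes, 0 had an unadjusted p under 0.05 and DESeq2 called 0. All 3 of these comparisons share libraries, so they are not independent of each other or of the comparison with 0 µM.

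**Figure D3:**
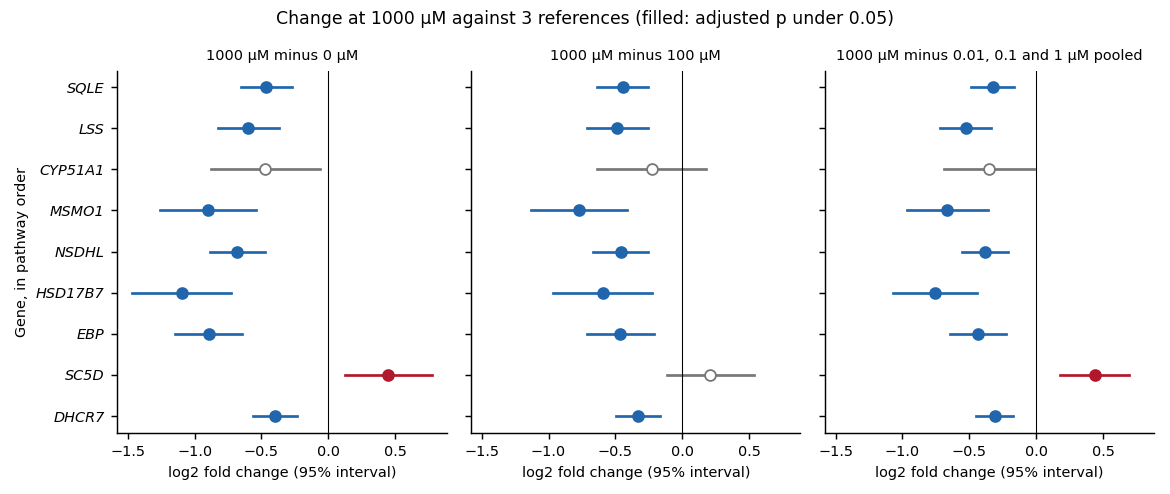
Log2 fold change of each enzyme at 1000 µM against 0 µM, against 100 µM and against the 9 libraries at 0.01 to 1 µM (points, with 95% intervals). Filled points pass an edgeR adjusted p of 0.05; 7 genes are lower in every panel, SC5D is higher in the left and right panels, and CYP51A1 is open in all.

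At the lower doses few of the enzymes passed, and those that did were EBP, HSD17B7 and NSDHL. These comparisons all use the same 3 control libraries. Libraries that lay wholly below the controls were seen for 3 enzymes at 0.01 µM (16.3% of all features), 2 at 0.1 µM (12.4%) and 2 at 1 µM (12.5%). The numbers were 4 enzymes at 10 µM (23.4% of all features) and 4 at 100 µM (22.0%). CYP51A1 is among the 4 at 100 µM, but summed with its overlapping genes it had 94.9 to 109 CPM there and 90.7 to 100 CPM in controls, a log2 fold change of 0.040 ± 0.11 (edgeR adjusted p 0.845). SC5D was the 1 enzyme wholly above the controls, at 100 µM, where 21.0% of all features were. At 0.01 µM EBP had 71.1, 70.2 and 64.2 CPM, and at 100 µM it had 79.2, 74.8 and 66.3 CPM, all below the controls. At 0.01 µM EBP was the 1 gene of 9 called (4.95% of all features, 2.08% lower), with a log2 fold change of -0.53 ± 0.12 (edgeR adjusted p 0.0392). At 100 µM it was again the 1 called (6.02% of all features, 3.27% lower), with -0.43 ± 0.12 (edgeR adjusted p 0.0423). Each of these 2 calls held in only 1 of 6 fits that left out 1 library, while the fold change stayed negative in all 6. At 0.01 µM the edgeR adjusted p became 0.173 or 0.145 without control replicate 1 or 2 (-0.46 and -0.52), and 0.122, 0.0598 or 0.0526 without replicate 1, 2 or 3 of that dose (-0.56, -0.55 and -0.47). At 100 µM it became 0.179 or 0.157 without control replicate 1 or 2 (-0.36 and -0.42), and 0.0628, 0.110 or 0.210 without replicate 1, 2 or 3 of that dose (-0.48, -0.44 and -0.36).

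At 10 µM 2 of 9 enzymes fell, EBP and HSD17B7, where 22.0% of all features were called and 10.7% were lower. EBP, with 58.7, 60.5 and 71.9 CPM, had a log2 fold change of -0.64 ± 0.12 (edgeR adjusted p 0.00384), and this call held in 6 of 6 fits without 1 library. HSD17B7, with 15.2, 16.2 and 18.6 CPM, was at -0.60 ± 0.17 (edgeR adjusted p 0.0216). It lost the call without control replicate 1 (-0.52; 0.102) or without replicate 1 (-0.54; 0.0967) or 2 (-0.58; 0.0735) of the dose. MSMO1 at 10 µM, with 43.2, 51.6 and 55.0 CPM, lay below all controls at -0.45 ± 0.17 (edgeR adjusted p 0.0648). NSDHL passed there without replicate 3 of the dose (-0.32; edgeR adjusted p 0.0458), and so did CYP51A1 (-0.62; 0.0357).

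At 0.1 µM edgeR's test called 0 of 9 enzymes and 0% of all features, 2 enzymes had an unadjusted p under 0.05, and DESeq2 called 0. At 1 µM edgeR called 0 of 9 and 0% of all features, 3 had an unadjusted p under 0.05, and DESeq2 called 2. The share of all features that DESeq2 called was not recorded. EBP came closest at 1 µM with -0.50 ± 0.12 (edgeR adjusted p 0.0839). Without replicate 1 of that dose EBP (-0.58; edgeR adjusted p 0.0380) and HSD17B7 (-0.60; 0.0474) passed. Without replicate 3 at 0.1 µM NSDHL passed (-0.40; edgeR adjusted p 0.0242).

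With the 9 libraries at 0.01, 0.1 and 1 µM pooled, 2 of 9 enzymes were lower than at 0 µM, beside 8.80% of all features called and 3.86% lower. EBP was at -0.46 ± 0.095 (edgeR adjusted p 0.0216), with 8 of 9 libraries below all controls. NSDHL had 32.7 to 43.6 CPM in these libraries, with a median of 36.7, and all 9 lay below all controls, as 2.87% of all features did. Its log2 fold change was -0.30 ± 0.078 (edgeR adjusted p 0.0288). EBP lost the call without control replicate 1 (-0.39; edgeR adjusted p 0.172) or 2 (-0.45; 0.0992). NSDHL lost it without control replicate 1 (-0.27), 2 (-0.32) or 3 (-0.30), 0.1 µM replicate 1 (-0.28) or 2 (-0.26), or 1 µM replicate 2 (-0.29), with edgeR adjusted p of 0.0526 to 0.198. NSDHL was also below all controls in 3 of 3 libraries at 10 µM and at 100 µM.

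Over the whole series, 7 of 9 enzymes differed among the 7 groups, beside 28.1% of all features. EBP had the smallest edgeR adjusted p, 8.7e-04, and CYP51A1 (0.296) and SC5D (0.0816) did not pass. Without the 3 libraries at 1000 µM edgeR called 0 of 9 in the same test, with 1 at an unadjusted p under 0.05. The share of all features called in that fit was not recorded, so this 0 cannot be set against it. A slope per dose step, with doses ranked in order of concentration, passed as negative for 5 enzymes, beside 29.0% of all features that passed and 14.5% that passed as negative. HSD17B7 had the steepest, -0.14 ± 0.026 log2 units per step (edgeR adjusted p 6.2e-04), and EBP followed with -0.10 ± 0.022 (0.00209). NSDHL (-0.065), MSMO1 (-0.095) and CYP51A1 (-0.069) also passed, with edgeR adjusted p from 0.0113 to 0.0389, while SC5D was at 0.058 ± 0.022 (0.0540). With the control libraries left out, HSD17B7 alone passed, at -0.13 ± 0.035 per step (edgeR adjusted p 0.0197). For this slope fit too the share of all features called was not recorded. The mean level of HSD17B7 was 25.2 CPM in controls, and with rising dose the 6 treated means were 20.4, 20.4, 19.1, 16.7, 17.8 and 11.8 CPM.

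Sequence before the start sites was read for the members, since 7 of them fell together at 1000 µM. RefSeq starts on GRCh38.p14 were found for 8 of the 9 genes, 10 starts in all because DHCR7 and SC5D have 2 each, and SQLE was not matched. The 250 bases before each start were searched on both strands for 4 motifs named by their known factors, and 35116 RefSeq promoters were searched in the same way. The sterol regulatory element TCACNCCAC, the kind of site SREBP binds, was found without mismatch in 0 of 8 genes and in 0.883% of all promoters. With 1 mismatch allowed it was found in 4 of 8, DHCR7, HSD17B7, MSMO1 and SC5D, and in 20.9% of all promoters. The CCAAT box, letters CCAAT, bound by NF-Y, was found in 7 of 8, all but CYP51A1, and in 32.0% of all promoters. The GC box GGGCGG, bound by Sp1, was found in 7 of 8, all but NSDHL, and in 42.6% of all promoters. The E-box CACGTG was found in SC5D and in 6.34% of all promoters. Counted per promoter, as the shares of all promoters are, the members held the inexact sterol regulatory element in 4 of 10, the CCAAT box in 8 of 10, the GC box in 8 of 10 and the E-box in 2 of 10. SC5D, which rose, and HSD17B7 and MSMO1, which fell, thus share a CCAAT box and an inexact sterol regulatory element. A match describes the letters and does not show that a factor binds there.

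The longer stretches before HSD17B7 and MSMO1 are shown because these genes had the largest estimated losses and hold both motifs, and short windows show the same motifs in others. HSD17B7 is read from chr1:162790452-162790701 on the plus strand, MSMO1 from chr4:165327419-165327622 on the plus strand, and both end before the exons. The SC5D windows are chr11:121292703-121292732 and chr11:121292774-121292803 on the plus strand. The DHCR7 windows are chr11:71448470-71448499 and chr11:71449117-71449146 on the minus strand, and the LSS window is chr21:46228907-46228936 on the minus strand. The EBP and NSDHL windows are chrX:48521726-48521755 and chrX:152830925-152830954 on the plus strand. Capitals mark a CCAAT box on either strand (CCAAT or ATTGG) or a sterol regulatory element with 1 mismatch on either strand, and all are written 5′ to 3′ on the strand of the gene.
HSD17B7: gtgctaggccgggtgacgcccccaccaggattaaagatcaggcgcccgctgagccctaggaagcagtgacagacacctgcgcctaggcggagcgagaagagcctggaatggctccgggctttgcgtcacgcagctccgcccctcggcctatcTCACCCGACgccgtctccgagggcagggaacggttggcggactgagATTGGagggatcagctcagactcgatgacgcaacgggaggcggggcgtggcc
MSMO1: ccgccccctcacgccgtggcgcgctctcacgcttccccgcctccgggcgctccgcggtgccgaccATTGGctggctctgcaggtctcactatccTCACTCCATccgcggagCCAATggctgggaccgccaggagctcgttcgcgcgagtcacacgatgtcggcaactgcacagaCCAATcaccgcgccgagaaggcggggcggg
SC5D, CCAAT box: cgccggtcgctgATTGGctggccgctccag
SC5D, sterol regulatory element: ttgcagagcaGTGGCGTGCggagcggcggc
DHCR7, CCAAT box: caggctcctcgaCCAATcacggggcgcgga
DHCR7, sterol regulatory element: gctgttgggtGTGGGGTCAgcagacacctt
LSS, CCAAT box: cgcggcgctctgATTGGttgcgtgggcgtc
EBP, CCAAT box: aagagagtgtctATTGGttgggagcggcac
NSDHL, CCAAT boxes: ATTGGgcaagatcacgccgtgagcgCCAAT

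The steps before squalene were read from a list of 9 genes of the mevalonate arm. At 1000 µM against 0 µM 8 of them fell, with a median log2 fold change of -0.64, beside 20.6% of all features called lower. MVK, mevalonate kinase, went from 60.6 ± 3.94 to 22.1 ± 2.18 CPM, a log2 fold change of -1.46 ± 0.12 (edgeR adjusted p 1.0e-07). PMVK, which adds the next phosphate, was at -1.22 ± 0.22, MVD, the decarboxylase after it, at -0.98 ± 0.18, and FDFT1, squalene synthase, at -0.77 ± 0.086. FDFT1, which makes the squalene that SQLE uses, thus fell by 41.2% beside 27.5% for SQLE.

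Among 5 other genes that act at the same steps as the 9, 2 fell at 1000 µM against 0 µM, 1 rose and 2 did not pass. Of all features, 20.6% were called lower and 20.6% higher in that comparison. TM7SF2, a sterol reductase that acts after CYP51A1, fell from 51.6 ± 5.13 to 23.1 ± 3.59 CPM (-1.16 ± 0.11; edgeR adjusted p 9.2e-07). LBR, which carries the same activity, was at 0.30 ± 0.18 (95% interval -0.073 to 0.66; edgeR adjusted p 0.188). ERG28, a scaffold protein for the enzymes that work on the methyl groups, fell (-0.42 ± 0.11; edgeR adjusted p 0.00596). FAXDC2, of the same hydroxylase family as MSMO1 and SC5D, rose from 22.6 ± 2.19 to 51.9 ± 7.16 CPM (1.20 ± 0.15; edgeR adjusted p 1.5e-05).

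**Figure D4:**
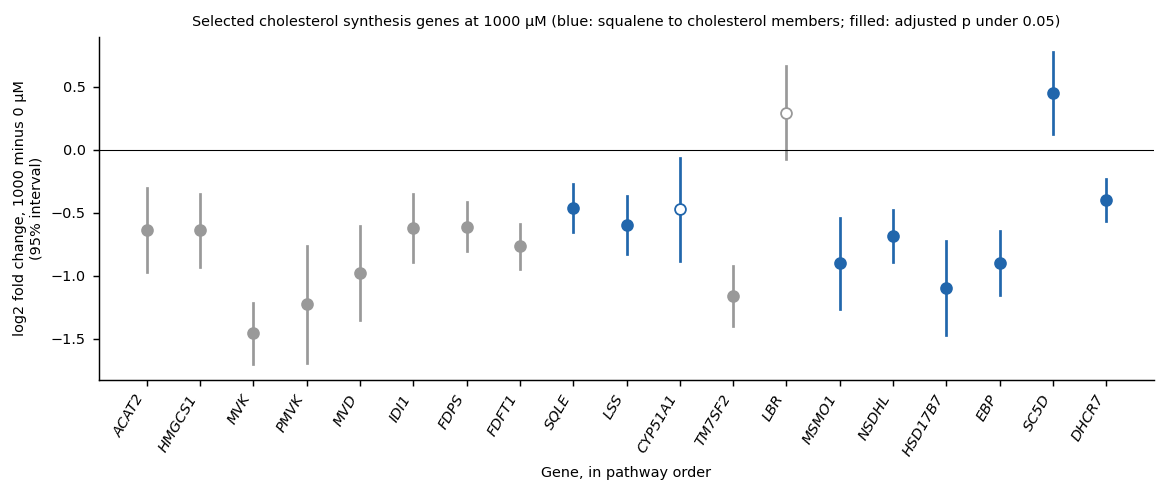
Log2 fold change at 1000 µM against 0 µM (points, with 95% intervals) for genes of cholesterol synthesis from the lists, not all of them shown, in pathway order; blue marks the 9 enzymes after squalene and grey the others. Filled points pass an edgeR adjusted p of 0.05; the 8 genes of the mevalonate arm shown and 7 of the 9 enzymes are lower, CYP51A1 and LBR are open, and SC5D is higher.

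Genes that regulate the pathway or handle its product did not move in a single direction. Unless stated, values here and in the next paragraph compare 1000 µM with 0 µM. In that comparison 41.2% of all features were called, 20.6% lower and 20.6% higher. Of 6 SREBP control genes tested, SREBF1 fell (-0.70 ± 0.15; edgeR adjusted p 9.9e-04), MBTPS1, the protease that makes the initial cut in SREBP, rose (0.42 ± 0.072; 2.0e-04), and 4 did not pass. SREBF2, which encodes SREBP2, had 166 ± 10.4 CPM at 0 µM and 153 ± 11.5 at 1000 µM (-0.12 ± 0.093; edgeR adjusted p 0.336), and INSIG1 is not analysed here. Of 6 genes of sterol uptake and other SREBP2 targets, 3 fell, among them TMEM97 (-0.47 ± 0.11; edgeR adjusted p 0.00328) and NPC1L1 (-0.34 ± 0.10; 0.0149).

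Of 7 tested genes of sterol efflux and the LXR sterol sensors, SMPDL3A (0.70 ± 0.11) and the exporter ABCA1 (0.49 ± 0.18) rose. ABCG5 (-0.58 ± 0.12), its partner ABCG8 (-0.46 ± 0.11) and LPCAT3 (-0.17 ± 0.062) fell, and these 5 had edgeR adjusted p of 8.4e-05 to 0.0386. Of 4 genes of sterol ester turnover, SOAT2, which esterifies cholesterol, fell (-0.66 ± 0.11; edgeR adjusted p 1.9e-04) and NCEH1, an ester hydrolase, rose (0.44 ± 0.12; 0.00551). MARCHF6, the ubiquitin ligase known to mark SQLE protein for degradation, rose from 60.4 ± 2.33 to 86.9 ± 6.41 CPM (0.52 ± 0.13; edgeR adjusted p 0.00456). UBE2J2, a ubiquitin-conjugating enzyme that works with it, fell (-0.64 ± 0.10; edgeR adjusted p 1.2e-04), and PGRMC1, a partner of CYP51A1 protein, was at -0.27 ± 0.13 (0.0916). In the means, some of these differences were already present at the lowest dose. ABCA1 averaged 59 CPM in controls, 81.4 with 0.01 µM caffeine and 83 with 1000 µM. In the same groups NCEH1 averaged 29, 37.7 and 39.4 CPM, MARCHF6 60.4, 77.5 and 86.9, and UBE2J2 87.4, 66.8 and 56.1. SMPDL3A averaged 19.8, 19.9 and 32.1 CPM. At 1000 against 100 µM edgeR called 1 of the 7 efflux and LXR genes, higher. It called 1 of 4 ester genes, lower, and 0 of MARCHF6, UBE2J2 and PGRMC1. No protein or sterol was measured.

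Genes were ranked by how alike their pattern over the 21 libraries was to that of the 9 enzymes. The measure was the Pearson correlation of their log2 CPM with the mean standardised log2 CPM of the 9, among 12436 candidates. FDFT1 came at the top with r = 0.94, and 0.84 without the 1000 µM libraries. DIO1, a thyroid hormone deiodinase (0.93 and 0.81), DDX56, an RNA helicase (0.93 and 0.85), and PRMT6, an arginine methyltransferase (0.93 and 0.86), followed. MPC1, a subunit of the mitochondrial pyruvate carrier (0.91 and 0.91), RFC2 (0.91 and 0.88), SLC25A33 (0.91 and 0.84) and SLC51A (0.91 and 0.89) completed the 8 named. SLC25A33 went from 181 ± 18.2 CPM at 0 µM to 72.0 ± 10.9 at 1000 µM and MPC1 from 72.1 ± 9.07 to 43.8 ± 5.15. The points share libraries and scaling, so these correlations are descriptions.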

How the data were processed

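RNA of 21 HepG2 libraries, 3 at each of 7 caffeine doses, was analysed. The authors deposited a table of whole-number counts per feature with no normalization; per the submitters' processing notes HISAT2, DESeq2 and GRCh38 were used, while the counter, annotation and strand setting are not given in the sources used here. The table has 37637 features, 32937 with Ensembl identifiers. Of 42 per-sample columns 21 matched the labels, and the remaining 21, which fit no sample here, were left aside. Coordinates and exon lengths come from GENCODE release 29 and start sites from RefSeq (GRCh38.p14).

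Counts were fitted with edgeR's quasi-likelihood test (edgeR 4.0.16, limma 3.58.1, R 4.3.3) in 1 fit over all 21 libraries, with TMM scaling, filterByExpr at a minimum of 10 counts, 14 residual degrees of freedom and Benjamini-Hochberg adjustment over the 17468 features tested, threshold 0.05. The common biological coefficient of variation was 0.162. A standard error is the log2 fold change over the square root of the F statistic. CPM divides a count by its TMM-scaled library total, with a prior count of 2 for log2 CPM. Totals ran from 28043623 to 40827833 counts. Replicate pairs differed by a chi-square of 5.45 to 207 per gene, so none was counted as a repeat. The scripts were tested on simulated data.

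The members and lists were chosen with earlier results of these data known. All 9 enzymes are named. From each list up to 4 genes with the largest change past the threshold at 1000 µM are named, with SREBF2 and INSIG1 in any case, and LBR, LPCAT3 and PGRMC1 were added after their values were seen. Some genes that the lists count are not reported here. Of 49 listed genes 4 were not matched. Alternatives were other scalings and filters, DESeq2 (1.42.0), a replicate block, fits of the compared groups alone, a stricter threshold, a linear dose, leaving out libraries and, chosen after seeing the data, the mitochondrial share as a covariate and sums with overlapping genes.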

Additional observations from a re-analysis of the deposited data

How the results depend on the processing

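The fold changes of the 9 enzymes at 1000 µM against 0 µM kept their sign under every alternative run. Some values at lower doses that did not pass changed sign, for example these: summed with overlapping genes, CYP51A1 went from -0.24 to 0.040 at 100 µM against 0 µM and from -0.12 to 0.22 against the pooled 0.01 to 1 µM libraries, and without 1 library SC5D at 0.01 µM ran from -0.096 to 0.27 and CYP51A1 at 0.1 µM from -0.13 to 0.11. The 7 calls of lower level at 1000 µM against 0 µM held under every alternative run, and SC5D lost its call at an adjusted p of 0.01 and in fits without 1 library. At the low doses the counts depended on settings, and the cause was not tested. The share of all features called was recorded for the main fit only. The counts of enzymes under alternatives, here and below, therefore have no such share beside them and show only how the calls moved. At an adjusted p of 0.01 edgeR called 0 enzymes at 0.01 µM, 1 at 10 µM, 0 at 100 µM, 0 for the pooled 0.01 to 1 µM libraries and 2 slopes. With library totals in place of TMM it called 0 each at 0.01 and 100 µM and 1 in the pool, and with no filter on low counts 0 at 100 µM and 1 in the pool. With only the groups compared it called 0 at 0.01 µM, 4 at 10 µM, 5 at 100 µM (4 lower, 1 higher) and 0 in the pool. DESeq2 called 2 each at 0.01, 1 and 100 µM. With the mitochondrial share as covariate 0 passed at 0.01 µM. A slope on linear dose called 8 (7 lower, 1 higher), a slope without the 0 µM libraries 1 and without the 1000 µM libraries 1, and without the latter 0 differed among groups. CYP51A1 at 1000 µM also passed with upper quartile scaling (-0.51) and with only the groups compared (-0.45).

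Leaving out each library in turn, calls against 0 µM were 0 to 1 (0.01 µM), 0 to 1 (0.1 µM), 0 to 2 (1 µM), 1 to 4 (10 µM), 0 to 1 (100 µM) and 7 to 8 (1000 µM). Calls at 1000 against 100 µM were 4 to 7. Against the pool they were 7 to 9 (1000 µM) and 0 to 0 (100 µM), with 0 to 2 for the pool, 6 to 8 among groups and 4 to 7 slopes.

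Replicate numbers did not pair the libraries: same-numbered libraries had a median correlation of deviations of 0.0199 over 63 pairs (-0.437 to 0.249), and 5 of 21 libraries correlated best with their own number. With the replicate block edgeR called 0 enzymes at 0.01 µM and 0 at 100 µM, and 8 at 1000 µM. Beside these counts of 0, 0 to 4 enzymes had an unadjusted p under 0.05. Each enzyme had at least 353 counts per library, and 3 libraries per dose limit the intervals.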
